A study of Caenorhabditis elegans with 26 samples.

Results

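The strains *mir-235(seed_mut)* and N2 were compared at 18, 19 and 20 h after plating, the opening hours of a *Caenorhabditis elegans* time course and those before miR-235-3p drops in wild-type animals. The members were chosen by hour, as those before that drop. They are 6 of the 26 small RNA libraries of the course, 3 hourly libraries in each strain. *mir-235(seed_mut)* is strain HW2643, which carries *mir-235(xe181[seed_mutant])*. This allele was made by CRISPR-Cas9 at the endogenous locus and carries a changed miR-235-3p seed. N2 is the wild-type strain and carries no edited allele. In both strains synchronized L1 larvae were put on food at 25 °C, with 2000 worms per plate and no treatment, and whole larvae were collected every hour. A library therefore holds the RNA of many pooled animals, and there was 1 library per strain and hour. The comparison asks which miRNAs already differed between the strains before that drop.

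A miRNA is cut from a hairpin as a duplex of a 5p and a 3p arm. One arm, the guide, is loaded into an Argonaute protein and finds its targets through the seed, the stretch near its 5′ end, whereas the other arm, the passenger, is usually discarded. miR-235 is the worm relative of the miR-92 family, and is known for holding blast cells quiescent in starved L1 larvae. In larvae many miRNAs change with developmental time, among them *lin-4* and *let-7*, the founding timing regulators, so a comparison of strains at one clock hour also holds any difference in age between the cultures.

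The libraries held 3435807, 3827743 and 3104354 counts in the mutant at 18, 19 and 20 h, against 3059641, 2833236 and 2253035 counts in N2. Of the 437 mature sequences listed, 218 were abundant enough to be tested, and these held 99.99% of counts. The libraries of 18 h stood apart within their strains. Over the 168 miRNAs that averaged 50 counts or more, the median absolute log2 difference between the 19 h and 20 h libraries was 0.17 in the mutant and 0.18 in N2. Between 18 h and the later hours it was 0.35 and 0.36 in the mutant and 0.27 and 0.35 in N2, which is as large as the difference between libraries of the strains, 0.24 to 0.38. Results are therefore also given without single libraries. The muscle miRNA miR-1-3p, the neuronal miRNAs miR-124-3p and lsy-6-3p and the intestinal miR-60-3p were all detected in the 6 libraries.

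The level of miR-235-3p did not separate the strains in these hours, which were chosen as those before its wild-type drop. It made up 15147, 21849 and 18572 CPM of the library total in the mutant, against 17026, 17875 and 18576 CPM in N2 (CPM, counts scaled to a common library size). The exact Poisson 95% intervals, which cover counting error only, were narrow, for example 15017 to 15278 CPM in the mutant and 16880 to 17173 CPM in N2 at 18 h. The mutant values lay on both sides of those of N2, with the lowest value at 18 h and the highest at 19 h.

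The mean was 18523 ± 3351 CPM in the mutant and 17825 ± 776 CPM in N2 (SD, n = 3 h each, exact permutation test, two-sided, p = 0.8, the smallest possible being 0.1). In the model over all miRNAs the difference, mutant minus N2, was -0.09 ± 0.17 on the log2 scale (SE, edgeR, adjusted p = 0.746), with library totals it was 0.05, and with 1 library left out it ran between -0.17 and 0.09. Its change over the 3 h was 0.14 log2 per h (adjusted p = 0.621). The edited sequence has its own entry in the table, and the alleles were added together for each arm. The sources used here do not say how reads of the edited sequence were matched, so a difference in recovery between alleles cannot be told apart from a difference in level.

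The allele counts separated the strains as labelled. The mutant libraries held 52033, 83600 and 57647 reads of the edited miR-235-3p and 9, 31 and 7 of the wild-type sequence. The N2 libraries held 169, 20 and 54 reads of the edited sequence and 51924, 50623 and 41798 of the wild-type one. The largest share of the other allele was thus in N2 at 18 h, 0.324% (Wilson 95% interval 0.279% to 0.377%), and the shares elsewhere were between 0.0121% and 0.129%.

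miR-235-5p, the passenger, was close to the limit of detection. It is also edited in the mutant, so recovery and level cannot be told apart for this arm either. It had 1, 3 and 3 reads in the mutant, all of the edited sequence. N2 had 10, 6 and 6 reads, all of the wild-type sequence. These reads correspond to 0.291, 0.784 and 0.966 CPM in the mutant and 3.27, 2.12 and 2.66 CPM in N2, and the groups did not overlap. The counting intervals of the libraries did overlap, for example 0.199 to 2.82 CPM in the mutant at 20 h and 0.977 to 5.80 CPM in N2 at 20 h, and miR-235-5p was too rare to be tested.

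Across all miRNAs, 11 of 218 were higher in the mutant (5.05%) and 3 were lower (1.38%) at an adjusted p under 0.05 (edgeR quasi-likelihood test with strain beside hour, Benjamini-Hochberg adjusted over the 218). At an unadjusted p under 0.05 there were 40. The increases ran between 1.66-fold and 5.14-fold, and 5 of them were 2-fold or more. In 13 of the 14 the 3 mutant libraries did not overlap those of N2, while among all 218 tested 25 miRNAs (11.5%) were higher in every mutant library than in any N2 library and 21 (9.63%) were lower. The 14 were called on these same libraries, so their lack of overlap is a description and no further support. The successive hours of a culture are not replicates, so these p-values only reflect how far hourly libraries scatter about the fitted lines. An effect of the strain and one of its culture cannot be told apart. The median difference of all tested miRNAs was -0.03 with TMM factors and 0.11 with library totals. With library totals 18 were higher and 2 lower, a higher share of 90.0% in place of 78.6%, and 13 of the 14 calls were kept.

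**Figure D1:**
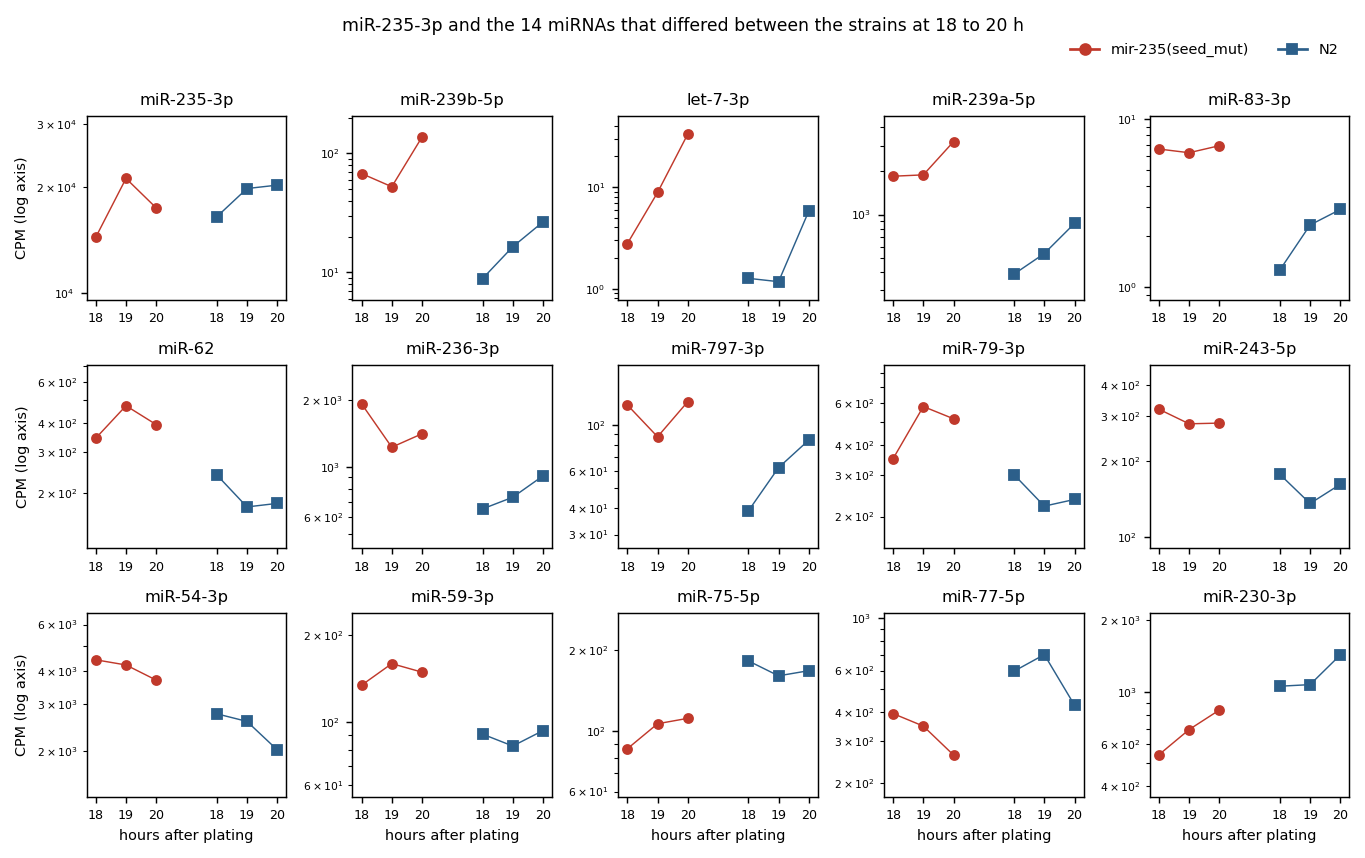
Level of miR-235-3p and of each miRNA called between the strains, in TMM-scaled CPM on log axes, against hours after plating. Red circles are the 3 mutant libraries, blue squares the 3 N2 libraries, and lines join successive hours. The strains do not overlap in 13 of the 14 called miRNAs, let-7-3p being the exception, while the miR-235-3p values of the strains intermingle.

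The paralogs miR-239a-5p and miR-239b-5p, which have been linked to stress resistance and lifespan in worms, led the increases. CPM of miRNAs other than miR-235 are given after TMM scaling over the 6 libraries from here on. miR-239a-5p had 1841, 1881 and 3195 CPM in the mutant, against 388, 538 and 869 CPM in N2. The lowest mutant library was more than 2 times the highest N2 library (log2 difference 1.99 ± 0.18, SE, adjusted p = 1.25e-05). miR-239b-5p had 67.8, 52.5 and 137 CPM in the mutant, against 8.84, 16.4 and 26.6 CPM in N2 (2.36 ± 0.29, adjusted p = 0.000212). Both were highest at 20 h in either strain, and every mutant library lay above every N2 library. Both were called in each of the 6 fits that left out 1 library, at 1.88 to 2.17 and 2.07 to 2.68, which held for none of the other 12 calls. A spline over all 26 libraries gave 1.85 and 2.25, and there neither passed the test (edgeR, adjusted p = 0.0596 and 0.0702), while miR-83-3p and let-7-3p did. The arms are close in sequence, so some reads may be split between them and the separate values are uncertain. The *mir-239a* and *mir-239b* genes both lie on chromosome X in the WBcel235 annotation, on opposite strands. miR-238-3p, a relative of the miR-239 pair, did not share the increase and was lower in every mutant library than in any N2 library, without passing the test. It had 2300, 2779 and 2967 CPM in the mutant, against 3093, 3299 and 3641 CPM in N2 (-0.32 ± 0.15, adjusted p = 0.268).

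let-7-3p, the passenger of the timing miRNA *let-7*, had the second largest difference. It had 2.77, 8.83 and 33.2 CPM in the mutant, against 1.26, 1.17 and 5.79 CPM in N2, or 10, 35 and 110 reads against 4, 3 and 12. The mutant was higher at each hour, although its 18 h value lay below the N2 value of 20 h, so the groups overlapped. The difference was 2.30 ± 0.41 (SE, adjusted p = 0.00499). The let-7-5p guide showed no such gap, with 714, 802 and 1656 CPM in the mutant, against 619, 939 and 1136 CPM in N2 (0.19 ± 0.19, adjusted p = 0.586). let-7-3p thus made up 0.386%, 1.09% and 1.97% of the *let-7* reads in the mutant, against 0.203%, 0.124% and 0.507% in N2.

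This difference depended on how the hours of the strains were aligned. When mutant libraries of 18 to 20 h were set against N2 libraries of 19 to 21 h, the let-7-3p difference was 0.22 (adjusted p = 0.631), and with mutant 19 to 21 h against N2 18 to 20 h it was 4.08. It was also lost without the mutant 20 h library (2.02, adjusted p = 0.113). miR-239a-5p and miR-239b-5p did not depend on the alignment in this way. With mutant 18 to 20 h against N2 19 to 21 h miR-239a-5p differed by 1.60 (adjusted p = 3.71e-06), and 13 of the 14 calls were kept, let-7-3p being the one lost. With mutant 19 to 21 h against N2 18 to 20 h 11 of the 14 were kept, the ones lost being miR-83-3p, miR-75-5p and miR-54-3p.

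**Figure D2:**
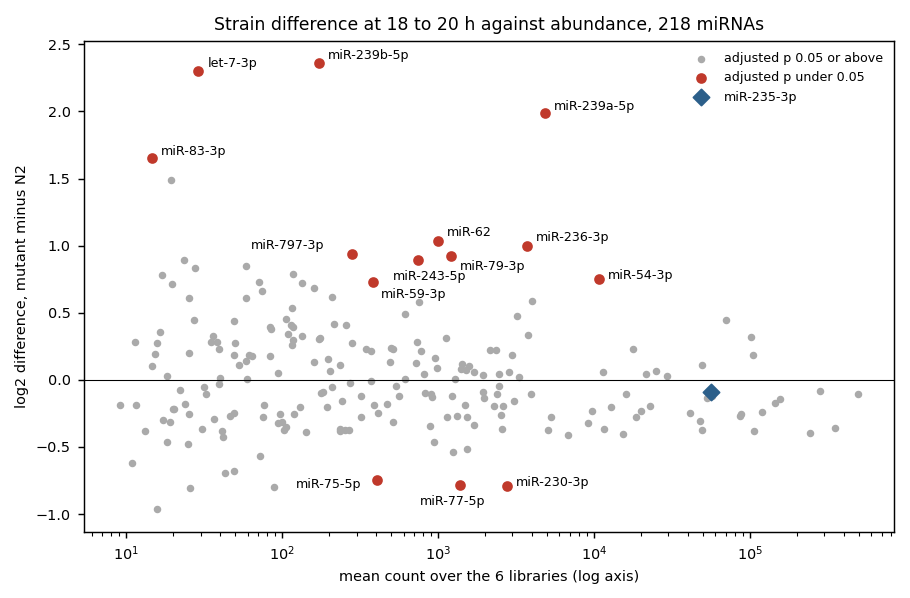
Log2 difference between the strains at 18 to 20 h, mutant minus N2, against the mean count over the 6 libraries on a log axis, for the 218 tested miRNAs. Red points passed an adjusted p of 0.05, grey points did not, and the blue diamond is miR-235-3p at -0.09. The called miRNAs have mean counts between 14.7 (miR-83-3p) and 10753 (miR-54-3p), and the 10 most abundant miRNAs lie between -0.39 and 0.32.

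A second group of increases was smaller and held guides of known families. miR-236-3p, the worm member of the miR-8/miR-200 family, had 1931, 1231 and 1415 CPM in the mutant, against 650, 733 and 915 CPM in N2 (0.99 ± 0.21, adjusted p = 0.0116). miR-79-3p, the worm relative of miR-9 with a role in neuronal migration through proteoglycan synthesis, had 350, 580 and 515 CPM in the mutant, against 299.9, 221 and 236 CPM in N2 (0.92 ± 0.21, adjusted p = 0.0167). In both the groups did not overlap, but the mutant 18 h library of miR-79-3p was only slightly above N2 at 18 h.

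miR-54-3p is the most abundant of the called miRNAs and belongs to the miR-51 family, which is essential and acts redundantly. It had 4416, 4223 and 3702 CPM in the mutant, against 2763, 2586 and 2020.4 CPM in N2 (0.75 ± 0.16, adjusted p = 0.0114). The groups did not overlap, and 20 h was the lowest library in either strain. In WBcel235 *mir-54* lies on chromosome X beside *mir-55* and *mir-56*, and its neighbours did not share the increase. miR-55-3p was lower in every mutant library, with 1291, 1590 and 1451 CPM, against 1840, 1964 and 1802 CPM in N2, without passing the test (-0.37 ± 0.16, adjusted p = 0.220). miR-56-3p differed by -0.05 (adjusted p = 0.877), and of the 6 tested members of the miR-51 family miR-54-3p was the 1 called, with a family median of 0.07.

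miR-62 is a mirtron, a hairpin that is released from a short intron by splicing and bypasses Drosha. It lies within *ugt-50* on the same strand in WBcel235. It had 344, 474 and 394 CPM in the mutant, against 240, 175 and 181 CPM in N2, without overlap (1.03 ± 0.19, adjusted p = 0.00499). The other listed mirtrons that could be tested, miR-1018 and miR-1020-3p, differed by 0.34 (adjusted p = 0.495) and 0.40 (adjusted p = 0.450), and the median of the 3 was 0.40. In WBcel235 *mir-1020* lies within T16G12.1, but no protein-coding host is annotated for *mir-1018*, so its intron origin is not shown there.

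miR-59-3p and miR-797-3p completed the guides that were higher. miR-59-3p had 134, 160 and 149 CPM in the mutant, against 90.6, 82.3 and 93.2 CPM in N2 (0.73 ± 0.17, adjusted p = 0.0167). miR-797-3p had 124, 87.6 and 129 CPM in the mutant, against 38.8, 62.4 and 84.5 CPM in N2 (0.94 ± 0.24, adjusted p = 0.0295). Neither overlapped between the strains, although the 19 h mutant library of miR-797-3p was close to the 20 h library of N2. *mir-797* lies close to *mir-247* on chromosome X, and miR-247-3p of that neighbour was at 45.6, 71.9 and 84.9 CPM in the mutant, against 93.4, 72.2 and 90.3 CPM in N2 (-0.38, adjusted p = 0.376).

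The less abundant arms miR-243-5p and miR-83-3p were also higher. miR-243-5p is the passenger of *mir-243*, whose guide is loaded into the RNA interference Argonaute RDE-1 in worms. It had 320, 280 and 282 CPM in the mutant, against 177, 136 and 162 CPM in N2 (0.89 ± 0.17, adjusted p = 0.00499). The guide miR-243-3p had 2519, 1649 and 1653 CPM in the mutant, against 2016, 2699 and 2998 CPM in N2 (-0.41 ± 0.22, adjusted p = 0.321), so the groups overlapped in the guide and not in the passenger. The passenger took 11.3%, 14.5% and 14.6% of the *mir-243* reads in the mutant, against 8.07%, 4.79% and 5.12% in N2.

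miR-83-3p rested on few reads, 24, 25 and 23 in the mutant, against 4, 6 and 6 in N2. *mir-83* is the worm relative of miR-29 and acts with *mir-34* in gonad migration. Its difference was 1.65 ± 0.43 (adjusted p = 0.0295), whereas miR-83-5p had 43, 48 and 48 reads in the mutant, against 45, 27 and 27 in N2 (0.02, adjusted p = 0.968). miR-83-3p and let-7-3p had means below 50 counts and are named here because their values were seen.

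The 3 decreases had similar sizes. miR-230-3p had 542, 693 and 838 CPM in the mutant, against 1055, 1072 and 1431 CPM in N2 (-0.79 ± 0.17, adjusted p = 0.0116). miR-77-5p had 394, 349 and 263 CPM in the mutant, against 596, 701 and 427 CPM in N2 (-0.79 ± 0.18, adjusted p = 0.0168). miR-75-5p had 86.3, 107 and 112 CPM in the mutant, against 182, 160 and 168 CPM in N2 (-0.75 ± 0.17, adjusted p = 0.0167). The groups did not overlap in any of the 3, and the highest mutant value of miR-77-5p, at 18 h, was close to the lowest N2 value, at 20 h. miR-75-5p lost its call with library totals (-0.61, adjusted p = 0.0759) and in 5 of the 6 fits with 1 library left out, being kept without the mutant 18 h library.

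Next in line among decreases, below the threshold, were miR-1829b-3p and miR-80-5p, the passenger of a miR-58 family hairpin. miR-1829b-3p had 18.0, 22.2 and 25.1 CPM in the mutant, against 39.8, 34.3 and 38.6 CPM in N2 (-0.80 ± 0.23, adjusted p = 0.0628). miR-80-5p had 342, 344 and 327 CPM in the mutant, against 469, 504 and 501 CPM in N2 (-0.54 ± 0.16, adjusted p = 0.0628). Neither overlapped between the strains.

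**Figure D3:**
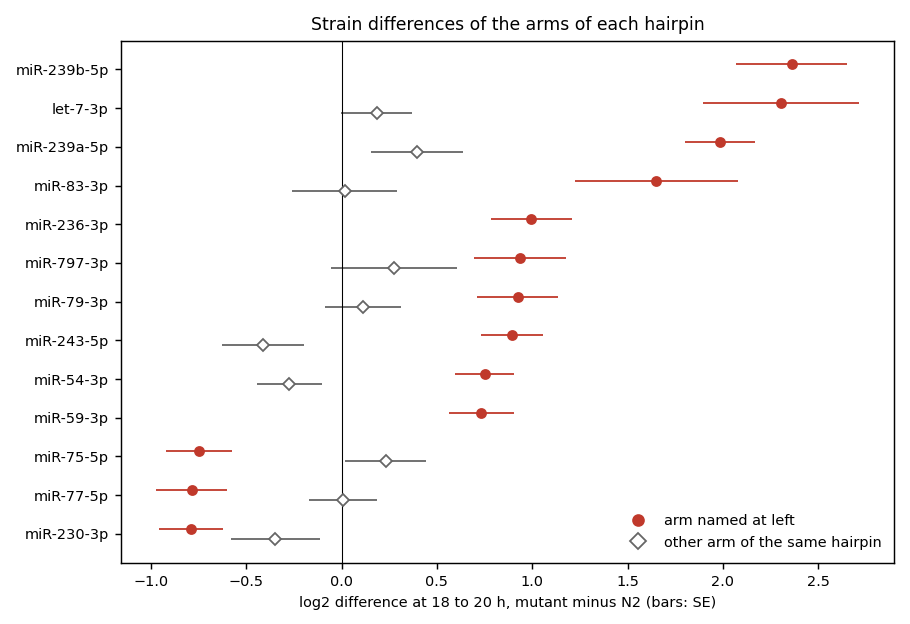
Log2 difference between the strains at 18 to 20 h, mutant minus N2, with SE as bars, for the 13 called miRNAs whose hairpins have both arms in the table. Red circles are the arms named at the left and open diamonds the other arms, of which 10 were abundant enough to be tested. The other arms lie between -0.41 and 0.40.

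In hairpins with both arms listed, 1 arm was called and the other was not. The other arm was tested in 10 of 13 hairpins, 0 of which were called by edgeR (0 also at an unadjusted p under 0.05, and all 10 overlapped between the strains), and their differences ran from -0.41 to 0.40. Over all 218 tested, 5.05% were called higher and 1.38% lower in edgeR, and 40 had an unadjusted p under 0.05. Groups did not overlap in 11.5% of the 218 (mutant higher) and 9.63% (mutant lower). Counts over 10 arms are too small to set apart from those shares. Whether the arms of a hairpin differed from each other was not tested. Shares of an arm within its hairpin do not depend on the library total. miR-54-3p made up 70.6%, 74.7% and 71.4% of *mir-54* reads in the mutant, against 61.8%, 55.3% and 51.2% in N2. miR-75-5p made up 49.4%, 43.3% and 47.4% of *mir-75* reads in the mutant, against 61.6%, 60.9% and 67.1% in N2. miR-83-3p made up 35.8%, 34.2% and 32.4% of *mir-83* reads in the mutant, against 8.16%, 18.2% and 18.2% in N2. In these hairpins the shares did not overlap between the strains. That held for 6 of the 13 hairpins with a called arm (46.2%) and for 30 of the 128 with a tested arm (23.4%). The calls were made on the same reads, so these counts are a description. Among the 7 that overlapped, miR-230-3p was at 66.6%, 74.2% and 76.4% in the mutant, against 84.9%, 73.4% and 75.7% in N2. By role, 7 guides of 128 tested were higher and 3 lower, and 3 passengers of 75 tested were higher and 0 lower, with miR-62 among the 15 listed as a single arm. By chromosome, 8 of the 14 lay on X, where 76 of the 218 tested miRNAs map.

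The calls rested on single libraries to differing degrees. Without the mutant 20 h library only miR-239a-5p and miR-239b-5p were called. Without the mutant 18 h library, which stood apart, 30 were higher and 19 lower, and all 14 calls were among them. Of the 14, 8 were kept without N2 20 h, 8 without mutant 19 h, 10 without N2 19 h and 10 without N2 18 h. miR-236-3p, miR-62, miR-243-5p and let-7-3p lost their calls in 1 of 6 such fits, that without mutant 20 h (adjusted p = 0.105, 0.0956, 0.0956 and 0.113), miR-54-3p and miR-797-3p in 2, miR-77-5p and miR-79-3p in 3, miR-230-3p and miR-59-3p in 4, and miR-75-5p and miR-83-3p in 5. The direction of each of the 14 stayed the same in all 6 fits. For the 13 whose groups did not overlap this was nearly fixed in advance.

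The 10 most abundant miRNAs were not among the called ones. Their differences ran from -0.39 for miR-57-5p to 0.32 for the muscle miRNA miR-1-3p, and the groups overlapped in 8 of them. miR-58a-3p, a bantam relative and the most abundant miRNA by mean count, had 99728, 192655 and 160793 CPM in the mutant, against 189789, 152900 and 140794 CPM in N2. It was lowest in the mutant at 18 h and highest in the mutant at 19 h. Its difference was -0.10 ± 0.24 (adjusted p = 0.796), and without the mutant 18 h library it was 0.33 (adjusted p = 0.0221), so the direction turned on 1 library. miR-90-3p was lower in every mutant library, with 35945, 30772 and 24192 CPM, against 40660, 39794 and 36402 CPM in N2 (-0.38 ± 0.17, adjusted p = 0.221). miR-66-5p was higher in each, with 33867, 36940 and 35089 CPM, against 28951, 31254 and 32817 CPM in N2 (0.19 ± 0.16, adjusted p = 0.523).

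The median strain difference over all 218 tested miRNAs was -0.03, and 5.05% of them were higher and 1.38% lower. Among the miR-35 family, abundant in embryos, 0 of 7 tested members were called between the strains (median 0.04), and in the *let-7* family 0 of 7 (median -0.09). The same count was 0 of 2 for the *lin-4* family (median 0.07), 0 of 4 for the miR-58 family (-0.19), 0 of 4 for the miR-2 family (0.30), 0 of 4 for the miR-44 family (-0.24), 0 of 4 for the miR-229 cluster (-0.12) and 0 of 3 for the miR-72 family (-0.08). Of the miRNAs named as EBAX-1-sensitive in the study, EBAX-1 being a ubiquitin ligase receptor in miRNA decay, 0 of 10 tested were called (-0.08), a list that leaves out miR-235, the edited miRNA. Of the passengers of rhythmic hairpins let-7-3p was the 1 called of 4 (median -0.15). None of the 4 tested passengers of the miR-35 to miR-41 cluster (-0.11) or of the 4 tested 5p arms of miR-42 to miR-45 (-0.05) was called. These counts are at an adjusted p under 0.05 over all 218 in edgeR.

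Markers of tissues gave 0 calls. The 4 neuronal markers had a median of 0.06, with miR-124-3p higher and miR-790-5p lower in each mutant library. The intestinal marker miR-60-3p was at 48.4, 101 and 87.3 CPM in the mutant, against 53.7, 51.5 and 45.4 CPM in N2 (0.62 ± 0.26, adjusted p = 0.201). The mutant was thus above N2 at 19 h and 20 h and below it at 18 h. The other listed intestinal markers, miR-240-3p and miR-786-3p, were too rare to be tested. The part of tissue make-up in the strain differences was not tested, and in whole animals fewer cells of a type and less RNA per cell cannot be told apart.

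A list of late L3 risers was drawn from the study's text. Of 6 listed, 4 were tested and 0 were called between the strains (median 0.30). miR-85-3p had 2.21, 13.4 and 9.97 CPM in the mutant, against 2.84, 1.95 and 3.86 CPM in N2 (1.49 ± 0.53, adjusted p = 0.142). It was higher in the mutant at 19 h and 20 h and not at 18 h. miR-240-5p and miR-357-3p differed by 0.41 and 0.19, with adjusted p = 0.450 and 0.685. The remaining tested member of the list went the other way, at -0.32.

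Common to both strains, 8 miRNAs (3.67%) rose from 18 to 20 h, while 5 (2.29%) fell (edgeR, coefficient of hour beside strain). let-7-3p rose fastest, by 1.66 ± 0.24 log2 per h (SE, adjusted p = 0.00197). miR-240-5p, whose hairpin lies close to *mir-786* on chromosome X, rose by 0.72 ± 0.17 per h. It had 31.5, 26.0 and 68.3 CPM in the mutant, against 14.5, 32.0 and 53.6 CPM in N2 at 18, 19 and 20 h. let-7-5p rose by 0.53 ± 0.11 per h, and its values above show a jump between 19 h and 20 h in the mutant and between 18 h and 19 h in N2.

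miR-71-5p, known for roles in lifespan and stress resistance, was the most abundant of the risers. It had 34797, 42053 and 56811 CPM in the mutant, against 29321, 52711 and 76966 CPM in N2. Every step was upward in both strains (0.52 ± 0.11 per h, adjusted p = 0.0134). miR-239a-5p (0.49 ± 0.11) and miR-239b-5p (0.61 ± 0.17) rose as well as differing between the strains, and with let-7-3p they were the 3 miRNAs called for both. miR-42-5p (0.50) and miR-43-5p (0.56), the 5p arms of neighbouring hairpins, also rose, while the differences of both between the strains did not pass the test.

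The miRNAs that fell were mainly of the miR-35 family, with 4 of 7 tested members called and a median of -0.51 per h, against 0.00 over all miRNAs. miR-35-3p had 460, 208 and 180 CPM in the mutant, against 357, 309 and 201 CPM in N2 (-0.56 ± 0.12 per h, adjusted p = 0.0134). miR-36-3p had 359, 222 and 167 CPM in the mutant, against 262, 206 and 138 CPM in N2 (-0.51 ± 0.10 per h). In the mutant most of the decline fell between 18 h and 19 h, in N2 between 19 h and 20 h. miR-37-3p (-0.55) and miR-40-3p (-0.56) also fell, and the passenger miR-74-5p fell at -0.46 per h. The 4 miR-35 family members that fell come from 1 cluster, *mir-35* to *mir-41* on chromosome II in WBcel235, and have the same seed, so they are not independent.

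**Figure D4:**
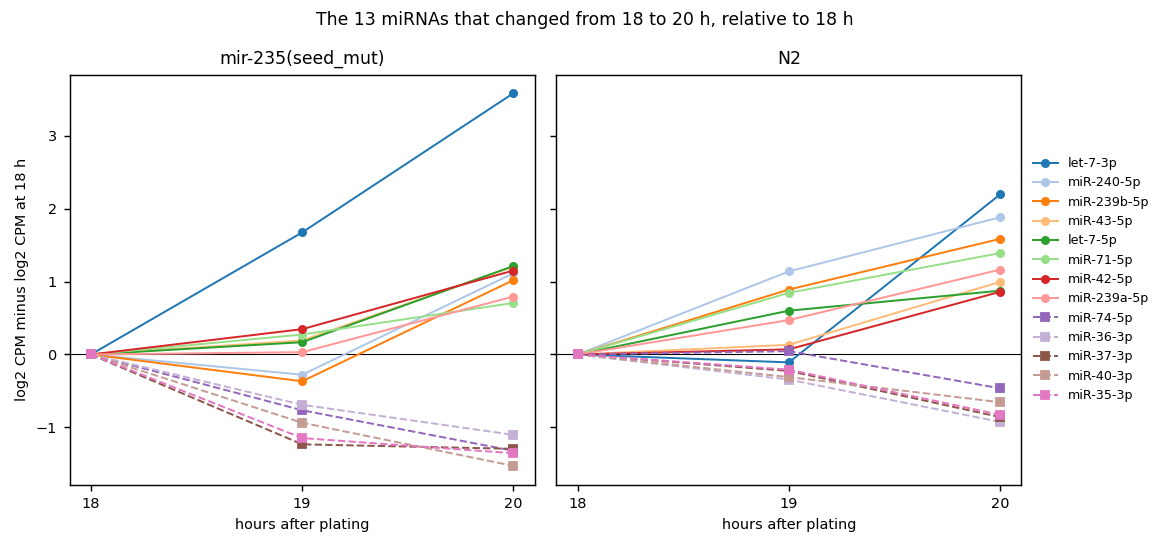
Change in level since 18 h, as the log2 difference of TMM-scaled CPM, against hours after plating for the 13 miRNAs called for the change per hour, mutant at left and N2 at right. Circles with solid lines are miRNAs that rose and squares with dashed lines those that fell. At 20 h all risers lie above and all others below their 18 h value in both strains.

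The hourly calls, more than the sizes of the changes, depended on the libraries of 20 h. Without the mutant 20 h library 0 were called (edgeR, smallest adjusted p = 0.252). There let-7-3p changed by 1.36 per h, miR-71-5p by 0.60, miR-239a-5p by 0.46, miR-35-3p by -0.58 and miR-37-3p by -0.61. In that fit miR-36-3p changed by -0.52, miR-40-3p by -0.47, miR-74-5p by -0.36 and miR-240-5p by 0.66. Smaller than with all 6 libraries were let-7-5p (0.37 against 0.53) and miR-43-5p (0.43 against 0.56). The same held for miR-42-5p (0.40 against 0.50) and miR-239b-5p (0.48 against 0.61). Without N2 20 h only let-7-3p was called (1.68 per h). Without the mutant 18 h library 13 rose and 16 fell. Among the 10 tested EBAX-1-sensitive miRNAs miR-71-5p rose, and the 4 that fell are the 4 of the miR-35 family given above. Of the 5p arms of miR-42 to miR-45, 2 of 4 rose, and of the late L3 risers 1 of 4 rose, miR-240-5p. In the *let-7* family 1 of 7 rose, let-7-5p, and the sisters miR-84-5p, miR-241-5p and miR-48-5p changed by 0.19, 0.21 and 0.15 per h without passing the test.

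No miRNA passed the test of a different hourly change between the strains in edgeR (0 higher, 0%, and 0 lower, 0%, with 15 at an unadjusted p under 0.05 and a smallest adjusted p of 0.420). DESeq2 also called 0, and limma called miR-58a-3p, which is among the most abundant miRNAs (0.66 log2 per h, adjusted p = 0.0284 with a pseudocount of 8). let-7-3p had a slope difference of 0.58 (adjusted p = 0.578) and miR-235-3p of -0.01 (adjusted p = 0.976). The fit has 2 residual degrees of freedom. Without the mutant 20 h library it called 33 miRNAs and without mutant 19 h 12, so the count rests on single libraries.

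Whether the early strain differences differed from later ones was tested directly against 2 later windows, with 3 libraries per strain in each. The early libraries are shared by both tests. Against 22 to 24 h, the hours of the wild-type drop, 0 miRNAs were called in edgeR (0% higher and 0% lower of 217, 11 at an unadjusted p under 0.05), 0 by limma and 1 by DESeq2, let-7-3p. Both windows were placed by the wild-type drop of miR-235-3p, so its values here are a description and not independent support. Its strain difference at 18 to 20 h minus that at 22 to 24 h was -1.04 ± 0.30 (edgeR, adjusted p = 0.434). In the later window its level was 17112, 17112 and 21511 CPM in the mutant, against 9340, 6379 and 12535 CPM in N2 (TMM-scaled over the 12 libraries), and every mutant library was above every N2 library.

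For let-7-3p the early difference exceeded the later one by 2.41 ± 0.51 (adjusted p = 0.0944). It passed the threshold when 1 of the N2 libraries of 18, 22, 23 or 24 h was left out, at 2.32 to 2.76. At 22 to 24 h let-7-3p had 111, 81.5 and 89.5 CPM in the mutant, against 103, 136 and 64.4 CPM in N2, so that the strains overlapped. miR-239a-5p passed without N2 23 h, at 1.59.

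Against 25 to 27 h, 1 period of the 7 h rhythm later, 3 early differences were higher (1.36%) and 3 lower (1.36%) of 220 tested. The median over all was -0.17 with TMM factors, -0.04 with size factors and 0.08 with library totals, and with library totals 9 were higher and 1 lower, so the values below are to be read against that shift. miR-239a-5p changed most among the abundant ones, 2.11 ± 0.36 (adjusted p = 0.00603). At 25 to 27 h it had 924, 1709 and 820.4 CPM in the mutant, against 1814, 960.4 and 1308 CPM in N2, with overlap. miR-243-5p (1.25 ± 0.28, adjusted p = 0.0274) and miR-62 (1.18 ± 0.27, adjusted p = 0.0274) were likewise higher in the mutant in the early window and overlapped in the later one, as did miR-77-5p (-0.99 ± 0.22) and miR-230-3p (-0.88 ± 0.22, adjusted p = 0.0351), which were lower early.

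The sixth, miR-5546-3p, was below the mean of 50 counts and is named because it was called. It had 11, 17 and 11 reads in the mutant, against 25, 21 and 10 reads in N2 at 18 to 20 h, and the early difference minus the later one was -2.20 ± 0.53 (adjusted p = 0.0351). Of the 6 calls 0 were kept when N2 19 h or N2 25 h was left out, 1 without mutant 20 h and all 6 without mutant 18 h, N2 18 h or mutant 19 h. With no slope within windows 0 were called, at a smallest adjusted p of 0.0729. Of the 14 miRNAs called at 18 to 20 h, 5 were among these 6. The same early libraries made the 14 calls, so this overlap is a description and no further support.

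**Figure D5:**
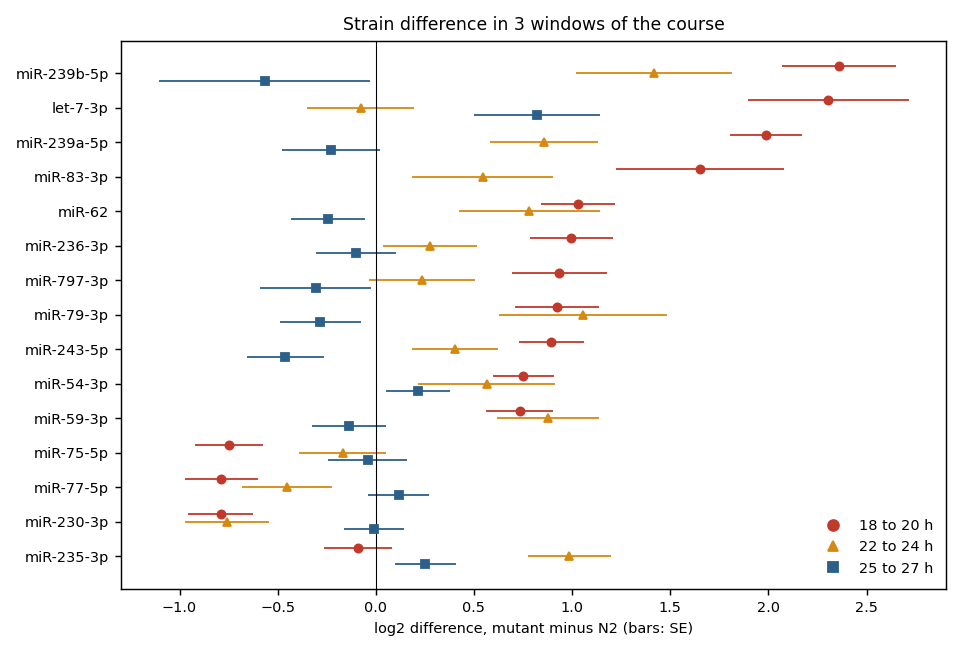
Log2 difference between the strains, mutant minus N2, with SE as bars, for the 14 miRNAs called at 18 to 20 h and miR-235-3p, in the windows 18 to 20 h (red circles), 22 to 24 h (orange triangles) and 25 to 27 h (blue squares). The later windows come from separate fits of 12 libraries each, and miR-83-3p was too rare to be tested at 25 to 27 h. The miR-239 pair lies above 0 at 18 to 20 h and at 22 to 24 h and below 0 at 25 to 27 h, and miR-235-3p lies near 0 at 18 to 20 h and near 1 at 22 to 24 h.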

How the data were processed

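Small RNA of whole larvae was made into libraries with the CleanTag kit, gel-purified (140 to 160 bp) and sequenced single-end for 51 cycles. The deposited raw counts were made by the authors with QuasR and Bowtie on ce10, allowing up to 100 genomic hits, by counting same-strand reads whose start lay within 3 bases of a mature 5′ end, with miRBase 22 positions carried over to ce10. Versions of QuasR and Bowtie are not given in the sources used here. A deposited table of log2 values made from these counts was not used. All 26 columns of counts were mapped to samples by title.

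Reads of both miR-235 alleles were summed per arm. Counts were tested with edgeR 4.0.16 (R 4.3.3) after filterByExpr, with TMM factors, estimateDisp, robust glmQLFit and glmQLFTest. The strain difference was fitted beside hour in the 6 libraries of 18 to 20 h, which leaves 3 residual degrees of freedom. Contrasts with a later window used 12 libraries, a slope per window and 6 residual degrees of freedom. All tested miRNAs entered the Benjamini-Hochberg adjustment, with a threshold of 0.05. SE is the absolute log2 difference over the square root of its F. Single values had an exact permutation test. Reads carry no molecular identifiers, so intervals cover counting error only. In a hairpin the arm with the higher mean count was called the guide.

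Named were miR-235, the 15 called miRNAs with the largest strain difference per direction and the 10 for other tests at a mean of at least 50 counts, filled to 5 by the smallest p, the 10 most abundant, and list members. Members and lists were chosen with earlier results of these data known. Tests were checked on counts simulated as independent libraries of fixed dispersion. That check held no culture effect, so it does not bear on p-values from successive hours of a culture. Alternatives were size factors, library totals, no low-count filter, a minimum mean of 50 counts, DESeq2 1.42.0, limma 3.58.1 with pseudocounts of 8 and 1, a threshold of 0.01, each library left out, no hour term, hour as a block, a spline over all 26 libraries, strains aligned 1 h apart, no slope within windows and the own allele alone. TMM with 40% trimming and equal library totals were added after seeing the data. Genes were located in the Ensembl annotation of WBcel235 or RefSeq, where 428 of 437 mature sequences matched, and no coordinates were taken from it. Mature sequences are not shown.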

Additional observations from a re-analysis of the deposited data

Results flagged for a closer look

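The strain difference at 18 to 20 h differed from that at 25 to 27 h in a direct test for 6 miRNAs (edgeR, 12 libraries). The early difference exceeded the later one by 2.11 for miR-239a-5p, by 1.25 for miR-243-5p and by 1.18 for miR-62, on the log2 scale. It lay below the later one for miR-77-5p (-0.995), miR-230-3p (-0.882) and miR-5546-3p (-2.2), the last with a mean below 50 counts. In the later window the strain differences themselves were -0.23 for miR-239a-5p, -0.46 for miR-243-5p, -0.24 for miR-62, 0.12 for miR-77-5p, -0.01 for miR-230-3p and 1.14 for miR-5546-3p, and 0 of the 6 passed the test there (edgeR, adjusted p between 0.591 and 0.988). When 1 of the 12 libraries was left out, miR-239a-5p kept its call in 10 fits, miR-62 in 8, miR-243-5p in 7, miR-77-5p and miR-5546-3p in 4 and miR-230-3p in 3. No formal test for outlying libraries was run on groups of 3, although the 18 h libraries stood apart within their strains.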

How the results depend on the processing

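The counts of called miRNAs moved more with the libraries used than with the scaling, and the cause was not tested. The strain difference at 18 to 20 h had 11 higher and 3 lower. It had the same counts with size factors and with TMM trimmed at 40%, and 11 higher and 2 lower with equal totals, the last 2 settings being chosen after seeing the data. Library totals gave 18 higher, no filter 24 higher, DESeq2 5 lower and limma 18 higher with either pseudocount. A threshold of 0.01 gave 5 higher and 0 lower, no hour term 1 lower, and a spline over all 26 libraries 2 higher (miR-83-3p and let-7-3p) and 0 lower. Mutant 18 to 20 h against N2 19 to 21 h gave 24 higher and 14 lower, and mutant 19 to 21 h against N2 18 to 20 h gave 17 higher and 16 lower. With 1 library left out the counts ran from 2 to 30 higher and from 0 to 19 lower.

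For the change per hour (8 higher, 5 lower), no filter gave 8 lower and a threshold of 0.01 gave 1 higher and 0 lower, and with 1 library left out there were 0 to 13 higher and 0 to 16 lower. For the strain by hour test (0 and 0), no filter gave 1 higher and 1 lower, limma 1 higher with either pseudocount, and with 1 library left out 0 to 17 higher and 0 to 16 lower. For the difference against 22 to 24 h (0 and 0), DESeq2, no filter and a minimum mean of 50 counts each gave 1 higher, and with 1 library left out 0 to 2 higher and 0 lower. For the difference against 25 to 27 h (3 and 3), size factors gave 5 higher, library totals 9 higher and 1 lower, no filter 12 higher, a minimum mean of 50 counts 5 higher and 1 lower, DESeq2 9 higher, limma 9 higher and 0 lower with either pseudocount, a threshold of 0.01 1 higher and 0 lower and no slope within windows 0 higher and 0 lower. With 1 library left out it had 0 to 9 higher and 0 to 13 lower.

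The miR-235-3p level differed by -966 to 2385 CPM with 1 library left out. The strain difference of miR-58a-3p ran from -0.31 to 0.33 with 1 library left out, and turned to 0.33 without the mutant 18 h library. With hour as a replicate block 11 were higher and 3 lower, and the 14 calls were kept. Deviations of libraries of the same hour correlated at -0.04, -0.27 and 0.55 at 18, 19 and 20 h. Across hours, mutant 18 h with N2 19 h gave 0.40 and mutant 19 h with N2 18 h gave 0.41. The other pairs of different hours lay between -0.31 and -0.22. Hours were therefore not taken to pair the strains. For single miRNAs, 479 of the values under alternatives other than leaving out a library stayed on their side of the threshold, 63 lost their call and 9 gained one.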
